A study of Mus musculus with 35 samples.

Results

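The expression of 32 genes of sterol and fatty acid synthesis was followed in primary mouse embryonic fibroblasts (MEFs) exposed to methyl methanesulfonate (MMS), an alkylating agent that damages DNA by adding methyl groups to its bases. The genes were chosen by name, 20 from the cholesterol pathway and 12 from the fatty acid pathway, out of 18194 genes on the arrays. Earlier results of these data were known when they were chosen. All 32 were among the 14135 genes tested. Messenger RNA was measured on 35 Affymetrix arrays of 9 groups. Control cells received fresh medium alone and were taken at 0, 1, 8, 24 and 72 h, and treated cells received fresh medium with MMS at 40 µg/mL and were taken at 1, 8, 24 and 72 h. Each group had 4 arrays, apart from MMS at 72 h with 3. All cells were C57BL6/J MEFs, for which the labels give no allele, from embryos of day 15.5 per the labels, expanded for 2 passages at 5% O2 and replated before the medium change, which the control cells therefore share. MEFs are a mixed primary population and not a clone, and each array holds RNA of a whole culture, so that fewer cells of a type and less RNA per cell cannot be told apart. Whether replicates came from separate cultures or embryos is not given in the labels. The p-values therefore weigh differences against the spread among arrays, and part of that spread may be technical.

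Cholesterol is built from acetyl-CoA through the mevalonate pathway, in which Hmgcs1, Mvk, Pmvk, Mvd, Idi1 and Fdps act in turn to give farnesyl diphosphate. Fdft1 joins this into squalene, Sqle and Lss convert squalene to lanosterol, and a series of enzymes trims lanosterol to cholesterol. Fatty acids branch from the same precursor, which Acly supplies in the cytosol and Acaca and Fasn turn into palmitate. Both pathways are known to be switched on by the SREBP transcription factors, encoded by Srebf1 and Srebf2, which are held in the endoplasmic reticulum by SCAP and INSIG proteins while sterols are plentiful. SREBPs bind short elements in the promoters of their targets, often next to boxes of the factor NF-Y.

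Most of the 32 genes were lower in MMS-treated than in control cells at 8 h and more of them at 24 h. At 72 h 10 of them differed, 6 higher and 4 lower, where 10.1% of all genes tested were higher and 10.4% lower. With Welch's adjusted test Msmo1 alone of these 10 passed. At 24 h 19 of the 20 cholesterol genes were lower, with a median log2 difference of -1.01, and 10 of them were at least 2-fold lower. Of the 12 fatty acid genes 9 were lower at 24 h, with a median of -0.63, while the phosphatidate phosphatase Lpin1 was 2.53-fold higher. Over all genes tested, 19.4% were lower and 25.0% higher at 24 h, 2.97% were lower by at least 2-fold and the median difference was 0.01. A gene was called higher or lower at an adjusted p under 0.05 in limma, over all genes tested. At 8 h 14 cholesterol genes were lower (median -0.39, 4 of them at least 2-fold) and 9 fatty acid genes were lower (median -0.51, 2 of them at least 2-fold), with Lpin1 higher. The medians at 8 h depended on the choice of probe set, at -0.199 and -0.231 with the mean of a gene's probe sets and -0.458 and -0.382 with the probe set of largest variance. At this time 25.0% of all genes tested were lower, 28.7% higher and 5.27% lower by at least 2-fold, with a median of 0.06. No MMS array overlapped with a control array in 22 members that were lower at 8 h and in 28 at 24 h. The same held for 22.6% and 18.9% of all genes tested. The median level of the cholesterol genes on an array had an SD of 0.07 between arrays of a group, pooled over groups. For the fatty acid genes it was 0.06, both on the log2 scale. This is the spread of a median over many genes, and not that of a single gene.

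**Figure D1:**
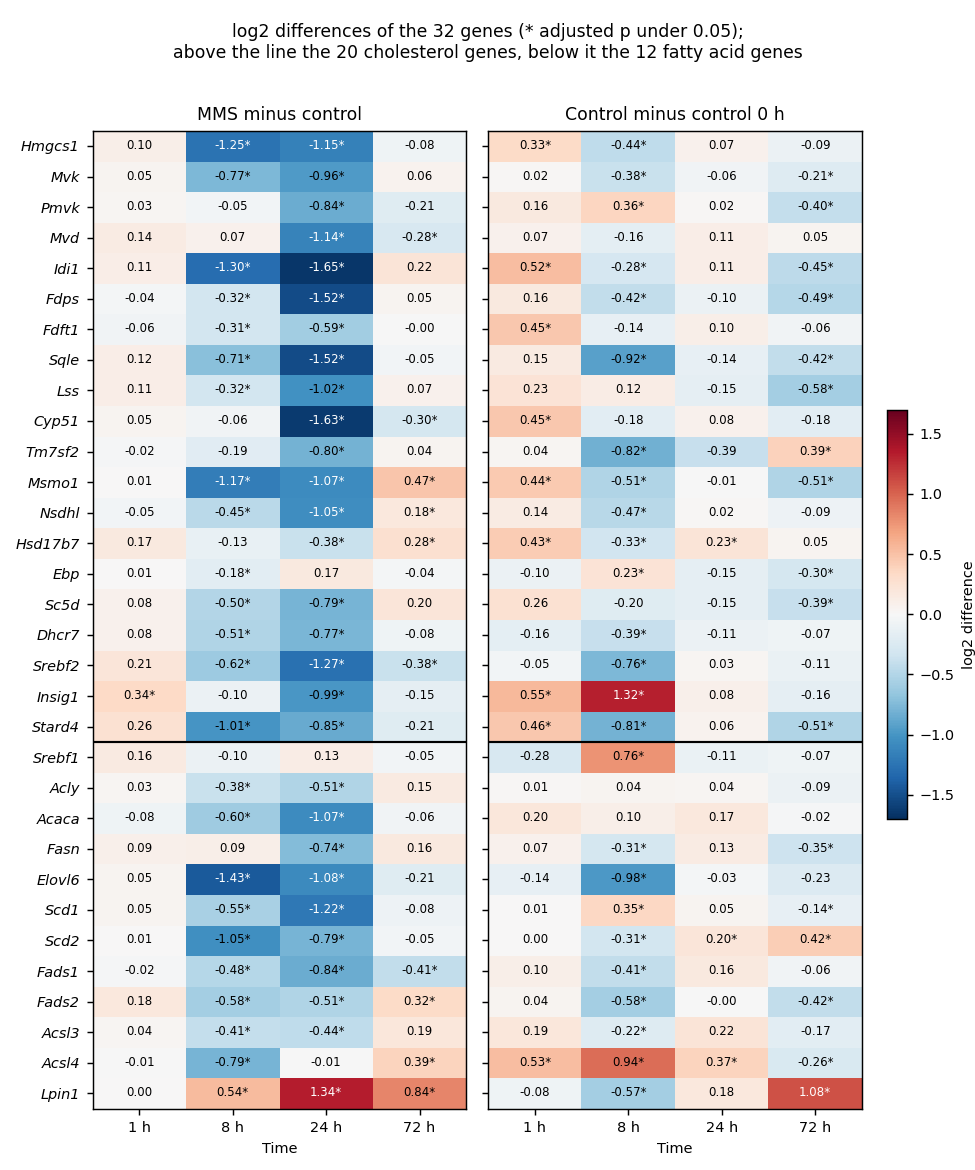
Log2 differences (colour and printed value) of the 32 genes (rows) at 1, 8, 24 and 72 h (columns), MMS minus control on the left and control minus control at 0 h on the right, with an asterisk where the adjusted p was under 0.05. At 24 h 19 of 20 cholesterol genes and 9 of 12 fatty acid genes carry a lower call, and Lpin1 stands out as higher by 1.34.

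**Figure D2:**
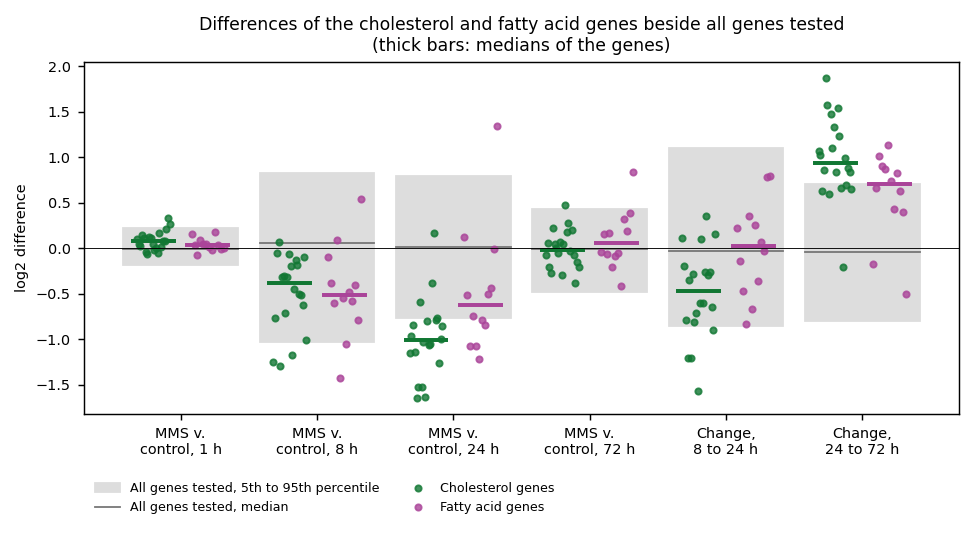
Log2 differences (y axis) of each cholesterol gene (green) and fatty acid gene (purple) at 4 times and for 2 changes of the MMS effect between times (x axis), with thick bars for medians and grey boxes from the 5th to the 95th percentile of all 14135 genes tested. The medians of the cholesterol genes lie at -0.39 at 8 h, -1.01 at 24 h and -0.02 at 72 h.

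Since many of these genes are known targets of SREBPs, their promoters were read for the elements these factors and their partners bind. A window from 250 bases before to 50 bases after the annotated start (RefSeq, mouse build GRCm38.p6) was at hand for 25 members, 16 cholesterol and 9 fatty acid genes, and 3 of these genes had more than 1 start. Fdps, Fdft1, Sqle, Stard4, Scd1, Scd2 and Fads1 were not matched. On either strand, the NF-Y box CCAAT was found in 16 of 16 cholesterol genes and 4 of 9 fatty acid genes, and in 41.1% of 27025 genes of the table. The core of a sterol regulatory element, CACNCCAC, was found in Hmgcs1, Insig1 and Acsl4 alone among the 25, against 7.12% of all genes. The E-box CACGTG was in Hsd17b7, Sc5d, Dhcr7 and Insig1, against 8.09%. Of 34 CCAAT matches in the windows of cholesterol genes, 20 began within 100 bases before the start, in 13 genes. The positions of matches were not counted over all genes, so this is not shown to be particular to these genes. A match is a description of the letters and not of binding, and elements that differ from the core searched would not be found. The 250 bases before the start are shown for the 3 genes with the core element, and for Mvk and Idi1, chosen after the counts were seen for their 5 and 2 NF-Y boxes. They run 5′ to 3′ on the gene's strand, with matches in capitals. In Hmgcs1 (chr13:119690101-119690350, plus strand) these are 3 NF-Y boxes and 1 core element, in Insig1 (chr5:28071162-28071411, plus strand) an NF-Y box, an E-box and a core element, and in Acsl4 (chrX:142390536-142390785, minus strand) 1 core element. Mvk lies at chr5:114444019-114444268 and Idi1 at chr13:8885356-8885605, both on the plus strand. No 2 of these matches overlapped.
Hmgcs1: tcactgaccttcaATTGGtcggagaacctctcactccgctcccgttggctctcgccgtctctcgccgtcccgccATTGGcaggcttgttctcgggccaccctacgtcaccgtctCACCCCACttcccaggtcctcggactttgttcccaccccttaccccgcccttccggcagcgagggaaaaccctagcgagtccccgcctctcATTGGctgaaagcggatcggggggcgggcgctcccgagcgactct
Insig1: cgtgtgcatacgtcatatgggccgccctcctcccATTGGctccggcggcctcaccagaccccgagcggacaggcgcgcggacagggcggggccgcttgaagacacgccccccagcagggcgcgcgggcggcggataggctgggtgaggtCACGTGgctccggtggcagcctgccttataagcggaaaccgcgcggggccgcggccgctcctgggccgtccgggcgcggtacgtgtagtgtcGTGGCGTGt
Acsl4: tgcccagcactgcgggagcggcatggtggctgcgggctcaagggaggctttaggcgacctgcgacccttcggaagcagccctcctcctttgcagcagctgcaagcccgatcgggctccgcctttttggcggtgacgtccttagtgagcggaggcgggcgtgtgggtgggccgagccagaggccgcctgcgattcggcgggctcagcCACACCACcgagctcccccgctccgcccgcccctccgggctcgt
Mvk: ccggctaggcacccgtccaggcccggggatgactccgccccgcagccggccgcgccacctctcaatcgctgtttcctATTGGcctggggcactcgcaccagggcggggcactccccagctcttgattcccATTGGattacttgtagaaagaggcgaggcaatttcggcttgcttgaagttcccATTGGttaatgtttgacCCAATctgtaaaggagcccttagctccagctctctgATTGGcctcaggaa
Idi1: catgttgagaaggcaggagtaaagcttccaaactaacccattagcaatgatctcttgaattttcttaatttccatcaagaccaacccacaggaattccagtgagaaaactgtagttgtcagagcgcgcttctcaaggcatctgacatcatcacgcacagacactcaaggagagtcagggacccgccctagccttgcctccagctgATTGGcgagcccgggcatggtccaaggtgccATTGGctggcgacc

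**Figure D3:**
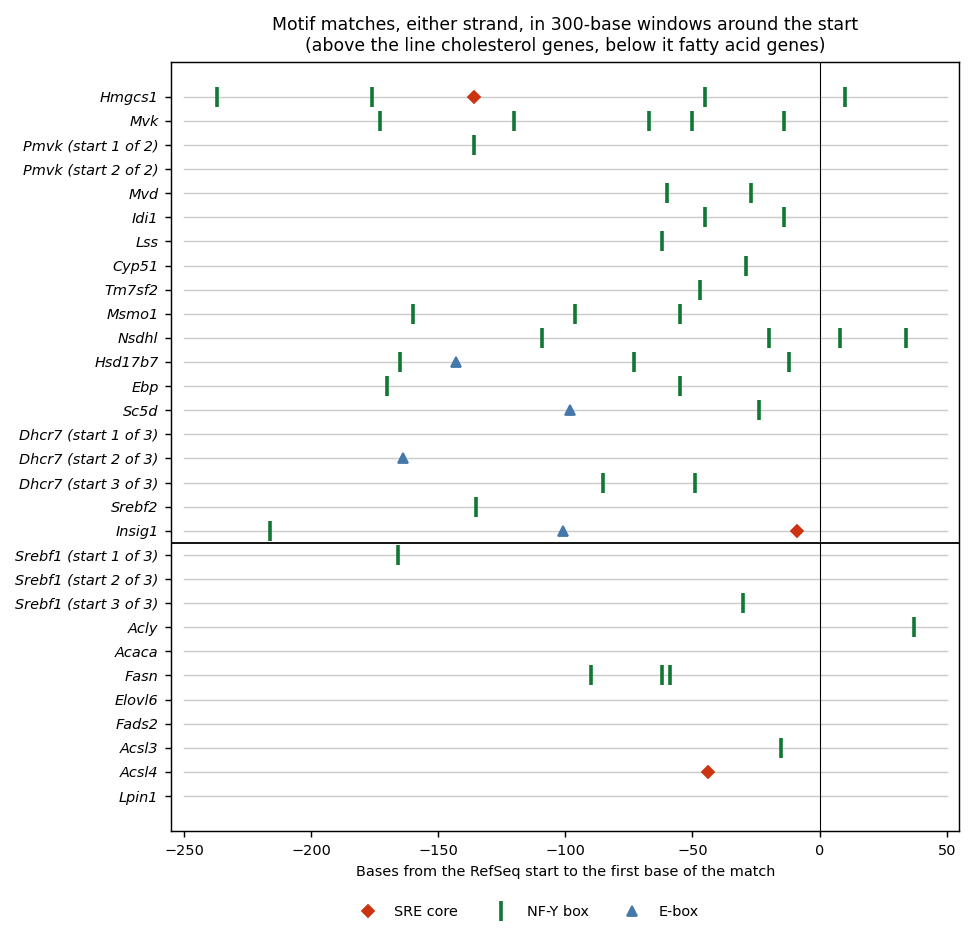
Positions of NF-Y boxes, sterol regulatory element cores and E-boxes (symbols) in bases from the annotated start (x axis) in the 300-base windows of 25 members (rows, with 1 row for each start). Every one of the 16 cholesterol genes above the line has at least 1 NF-Y box in a window, and 5 of the 9 fatty acid genes below it have none.

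The cultures carried fibroblast transcripts throughout, and some held transcripts of other cells. All 10 fibroblast markers, such as Col1a1 and Vim, reached the limit for expression on every array. Their mean was 12.36 to 12.43 in control and 11.73 to 11.79 in MMS-treated cells at 8 h, and 12.60 to 12.69 against 11.48 to 11.76 at 24 h, on the log2 scale. All 12 macrophage markers, including Csf1r and Lyz2, reached the limit on the 8 h arrays, with means of 8.93 to 9.06 in control and 8.36 to 8.61 in MMS-treated cells, against 4.52 to 6.22 on all other arrays. At 24 h their mean was 4.52 to 4.61 in control and 5.07 to 5.57 in MMS-treated cells. Of the 12 markers, Cd68 (mean 4.95 in control and 8.397 after MMS), Cd14 (5.54 and 8.28) and Csf1r (5.85 and 7.77) were higher in all MMS arrays at 24 h, while Lyz2 (5.77 and 5.71), Adgre1 (4.49 and 4.197) and Tyrobp (4.65 and 4.45) were not. The 8 control and MMS arrays at 8 h also stood apart from all others along the main axis of variation, a principal component with 44.5% of the variance. Markers of intestinal epithelium were in excess in replicate 3 of control at 0 h (mean 11.04), MMS at 1 h (7.53), MMS at 24 h (9.42) and MMS at 72 h (6.45), and less so in control 1 h replicate 3 and control 24 h replicate 4, whereas the other arrays lay between 4.24 and 5.37. Of 8 adipocyte markers matched, 3 to 6 reached the limit, with means between 4.46 and 6.10. Single adipocyte markers differed in opposite directions at 24 h, Fabp4 with means of 9.03 in control and 6.75 after MMS, and Pparg with 6.21 and 7.42. The part of these transcripts in the results below was not tested, and at 8 h it cannot be told apart from time. Without the 4 arrays richest in intestinal transcripts, 19 cholesterol and 9 fatty acid genes were again lower at 24 h. None of these arrays was taken at 8 h.

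The enzymes of the mevalonate steps were all 6 lower at 24 h, by 0.84 to 1.65 on the log2 scale, and 4 of the 6 at 8 h. Hmgcs1, which condenses acetyl units into HMG-CoA, stood at 11.18, 11.12, 11.28 and 11.26 in the 4 control arrays at 8 h and at 9.85, 10.01, 9.97 and 9.98 in the MMS arrays. The groups lay apart by more than a log2 unit, and the difference was -1.25 (SE 0.07, 2.39-fold lower, adjusted p = 6.0e-15). At 24 h Hmgcs1 was 11.67, 11.71, 11.78 and 11.69 in control cells and 10.36, 10.41, 10.89 and 10.60 after MMS, a difference of -1.15 (SE 0.07, adjusted p = 8.0e-14). The highest of these MMS arrays was replicate 3, which held intestinal transcripts. Idi1, the isomerase of isopentenyl diphosphate, had 10.53, 10.60, 10.66 and 10.64 in control cells at 24 h and 8.67, 8.79, 9.48 and 8.88 after MMS. Again replicate 3 was the highest treated array, but no array overlapped, and Idi1 was 3.14-fold lower (log2 -1.65, SE 0.11, adjusted p = 9.4e-14). Without MMS 24 h replicate 3 the difference of Idi1 was -1.82. At 8 h it was -1.30, with MMS arrays at 8.71, 9.07, 8.89 and 8.99 below control arrays at 10.06, 10.31, 10.28 and 10.20.

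Fdps, the farnesyl diphosphate synthase, and Mvd, the mevalonate decarboxylase, differed mainly at 24 h. Fdps stood at 11.64, 11.71, 11.69 and 11.72 in control and at 10.17, 10.05, 10.45 and 9.99 in treated cells at 24 h. All treated arrays were more than a log2 unit below the control arrays, and Fdps was 2.88-fold lower (log2 -1.52, SE 0.09, adjusted p = 3.8e-15), after a difference of -0.32 at 8 h (adjusted p = 0.0023). For Mvd the control arrays at 24 h read 8.01, 8.04, 7.86 and 8.15 and the MMS arrays 6.80, 6.86, 6.93 and 6.91. The gap was even across arrays, at -1.14 (SE 0.09, adjusted p = 6.6e-12). At 8 h Mvd did not pass the test, with control arrays at 7.67, 7.64, 7.73 and 7.92 and MMS arrays at 7.93, 7.73, 7.82 and 7.77, which overlapped. The effect on Mvd changed by -1.21 between 8 and 24 h (adjusted p = 4.4e-09 for the change). The kinases Mvk and Pmvk were lower at 24 h by 0.96 and 0.84 on the log2 scale (adjusted p = 5.9e-12 and 7.5e-08). At 8 h Mvk was lower by 0.77, and Pmvk stood at -0.05 (adjusted p = 0.72).

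Of the 11 genes of the squalene and sterol steps, 10 were lower at 24 h and 8 at 8 h. Sqle, the squalene epoxidase, which sets the pace of the later steps, stood at 10.96, 10.87, 10.89 and 10.71 in control and at 9.12, 9.24, 9.72 and 9.26 in treated cells at 24 h. Replicate 3 was again the highest treated array and no array overlapped, and Sqle was 2.87-fold lower (log2 -1.52, SE 0.08, adjusted p = 7.2e-16). At 8 h the control arrays read 10.07, 9.97, 10.10 and 10.18 and the MMS arrays 9.40, 9.40, 9.34 and 9.33. This was a difference of -0.71 (adjusted p = 5.3e-09) between cells taken at the same time. Cyp51, the lanosterol demethylase, was 10.05, 10.36, 10.19 and 10.22 in control and 10.06, 10.20, 10.16 and 10.15 in treated cells at 8 h. These arrays overlapped and the difference was -0.06 (adjusted p = 0.55). At 24 h Cyp51 stood at 10.40, 10.43, 10.47 and 10.54 in control and 8.74, 8.74, 9.10 and 8.73 in treated cells, 3.10-fold lower (log2 -1.63, SE 0.08, adjusted p = 2.9e-16). The change of its effect between 8 and 24 h, -1.57 (adjusted p = 2.6e-12), was the most negative among the 32 genes. Another probe set of Cyp51 was lower by 0.60 at 8 h (adjusted p = 6.7e-05), so the level at 8 h depended on the probe set.

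Msmo1, which oxidises methyl groups of the sterol ring, moved early. At 8 h it stood at 10.87, 11.08, 11.01 and 10.98 in control and at 9.74, 9.85, 9.87 and 9.79 in treated cells. The groups were a log2 unit apart, with a difference of -1.17 (SE 0.10, adjusted p = 1.2e-11). At 24 h the values were 11.38, 11.55, 11.49 and 11.53 against 10.16, 10.25, 10.95 and 10.33, with replicate 3 nearest to the controls, and the difference was -1.07 (adjusted p = 1.5e-10), or -1.24 without that array. Nsdhl, which works on the same methyl groups, was 9.98, 10.07, 10.09 and 10.08 in control and 8.92, 8.90, 9.26 and 8.94 in treated cells at 24 h. It was 2.07-fold lower (log2 -1.05, SE 0.06, adjusted p = 2.0e-15) with no overlap. Lss, the lanosterol synthase, read 8.98, 8.85, 8.90 and 8.85 in control and 7.74, 7.76, 8.10 and 7.87 after MMS at 24 h. It was 2.04-fold lower (log2 -1.02, SE 0.08, adjusted p = 6.5e-12). At 8 h the groups overlapped, and the call (log2 -0.32, adjusted p = 0.0013) rested on the probe set, since the probe set with the largest variance read 0.37 (adjusted p = 0.055).

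The other sterol genes moved less. Fdft1, Tm7sf2, Hsd17b7, Sc5d and Dhcr7 were lower at 24 h by 0.38 to 0.80 on the log2 scale. Tm7sf2, a sterol reductase, spread most, with MMS arrays at 5.90, 6.26, 6.83 and 6.18 below control arrays at 7.09, 7.19, 7.07 and 7.02, and with Welch's adjusted test in place of limma its call was lost (adjusted p = 0.062). A second probe set of Hsd17b7, a ketosterol reductase, stood at 0.22 at 24 h (adjusted p = 0.28). Ebp, the sterol isomerase, was the exception among the 20 cholesterol genes, with a difference of 0.17 at 24 h (adjusted p = 0.051) and all treated arrays above the control arrays. At 8 h Ebp was lower by 0.18 (adjusted p = 0.031), a call that was lost without control 8 h replicate 1, 3 or 4 or MMS 8 h replicate 2 or 3, with values of -0.18 to -0.16.

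Both sterol regulators, Srebf2 and Insig1, and the sterol carrier Stard4 were lower at 24 h. Srebf2, the regulator of the cholesterol pathway, stood at 8.65, 8.30, 8.29 and 8.19 in control and at 7.80, 7.57, 7.90 and 7.65 in treated cells at 8 h. No array overlapped, and Srebf2 was lower by 0.62 (SE 0.09, adjusted p = 2.8e-07). At 24 h it was 9.32, 9.05, 9.11 and 9.10 in control and 7.94, 7.82, 7.90 and 7.86 in treated cells. It was 2.41-fold lower (log2 -1.27, adjusted p = 2.4e-13), with the treated arrays close together. Srebf2 was also lower at 72 h, by 0.38 (adjusted p = 0.0026), with MMS arrays at 8.72, 8.58 and 8.56 and control arrays at 8.91, 9.11, 8.91 and 9.08. Insig1, which retains the SREBPs and is itself one of their targets, followed another course. At 1 h it stood at 8.29, 8.28, 8.28 and 8.28 in control and 8.73, 8.83, 8.42 and 8.50 in treated cells. All treated arrays were higher, by 0.34 (SE 0.07, adjusted p = 0.031), the one call among the 32 genes at 1 h. At 8 h control arrays of 9.07, 9.06, 9.0 and 9.12 and MMS arrays of 8.92, 8.89, 9.09 and 8.96 overlapped (difference -0.10, adjusted p = 0.26). At 24 h Insig1 was 7.82, 7.80, 7.76 and 7.89 in control and 6.73, 6.88, 6.80 and 6.88 in treated cells, 1.99-fold lower (log2 -0.99, adjusted p = 1.8e-12).

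Stard4, which carries sterols between membranes, was lower at 8 and 24 h, and the change of its effect between these times did not pass the test. At 8 h it stood at 7.77, 7.76, 7.82 and 8.07 in control and at 6.72, 6.98, 6.71 and 6.98 in treated cells. The groups lay apart and Stard4 was 2.01-fold lower (log2 -1.01, SE 0.15, adjusted p = 1.3e-06). At 24 h control arrays of 8.63, 8.82, 8.71 and 8.72 faced MMS arrays of 7.66, 7.75, 8.32 and 7.75, a difference of -0.85 (adjusted p = 2.4e-05). Without MMS 24 h replicate 3, the highest of these and an array with intestinal transcripts, the difference was -1.0.

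**Figure D4:**
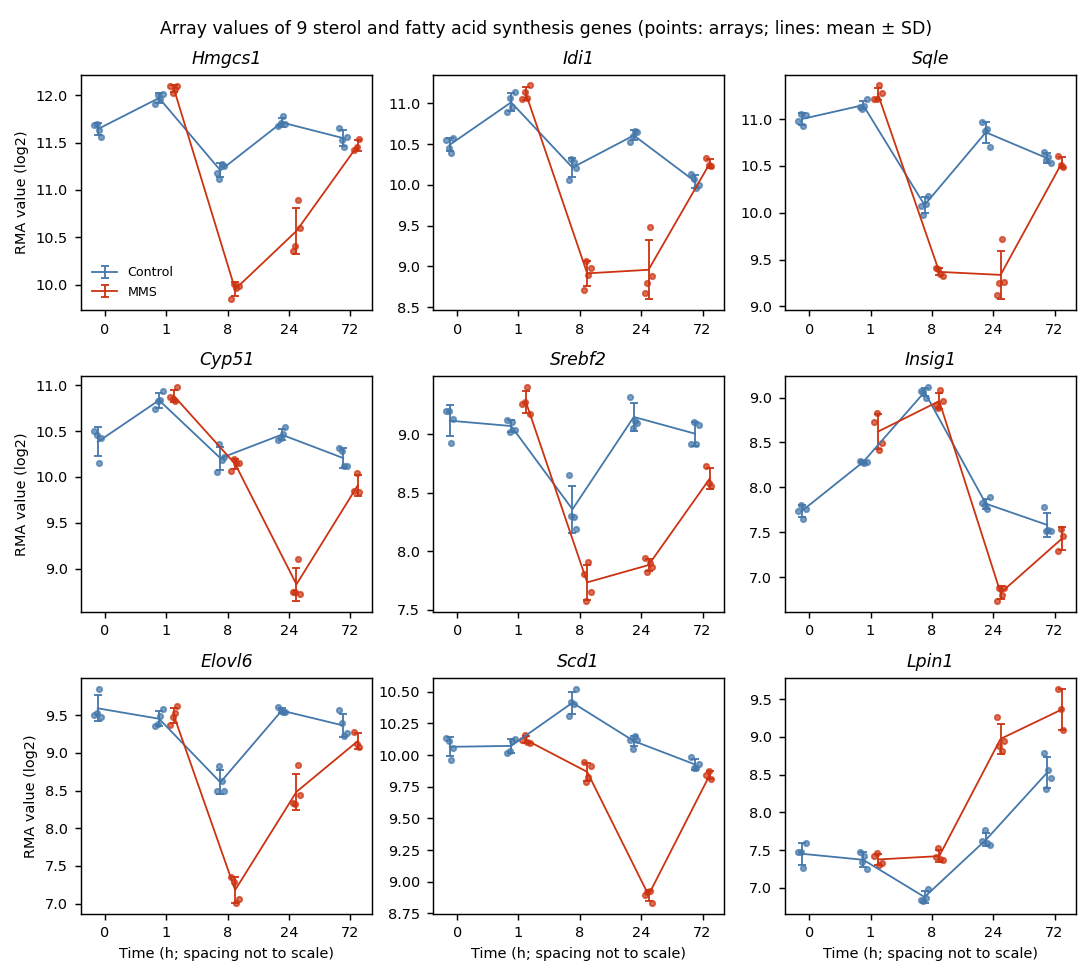
RMA values (y axis, log2) of 9 members on each array against time in h (x axis, not to scale), control cells blue and MMS-treated cells red, where each point is an array and lines join the group means with SD bars. At 24 h the MMS arrays of Cyp51 lie between 8.73 and 9.10 and the control arrays between 10.40 and 10.54, and for Lpin1 the MMS arrays lie above the control arrays.

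Among the fatty acid genes the regulator and the enzymes differed. Srebf1, the regulator of fatty acid synthesis, did not pass the test at any time, with differences of 0.16, -0.10, 0.13 and -0.05 at 1, 8, 24 and 72 h. Its control arrays at 24 h read 8.85, 8.55, 8.46 and 8.63 and its MMS arrays 8.65, 8.75, 8.78 and 8.83. The treated arrays lay inside the span of the control arrays. The enzymes Acly, Acaca and Fasn were lower at 24 h, by 0.51, 1.07 and 0.74 on the log2 scale. Acaca, the acetyl-CoA carboxylase that commits carbon to fatty acids, stood at 9.09, 9.03, 9.0 and 9.09 in control and at 7.99, 7.94, 8.00 and 7.99 in treated cells at 24 h. The arrays of each group lay close together, and Acaca was 2.10-fold lower (SE 0.07, adjusted p = 2.0e-13). Acaca was lower by 0.60 at 8 h (adjusted p = 2.6e-08) and Acly, the ATP citrate lyase, by 0.38 (adjusted p = 8.4e-06). Fasn, the fatty acid synthase, was at 0.09 at 8 h (adjusted p = 0.36), and its effect changed by -0.83 between 8 and 24 h (adjusted p = 6.7e-07).

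The 5 genes of elongation and desaturation were all lower at both 8 and 24 h. Elovl6, which elongates palmitate, stood at 8.49, 8.83, 8.63 and 8.49 in control and at 7.36, 7.29, 7.01 and 7.06 in treated cells at 8 h. The groups were a log2 unit apart, and the difference of -1.43 (SE 0.10, 2.69-fold lower, adjusted p = 8.6e-13) was the most negative of the 32 genes at 8 h. At 24 h Elovl6 was 9.61, 9.56, 9.54 and 9.54 in control and 8.34, 8.32, 8.83 and 8.45 in treated cells (difference -1.08, adjusted p = 6.3e-10). Scd1, a desaturase that makes oleate, read 10.12, 10.05, 10.15 and 10.12 in control and 8.90, 8.92, 8.93 and 8.83 after MMS at 24 h. It was 2.33-fold lower (log2 -1.22, SE 0.05, adjusted p = 2.0e-18), and MMS replicate 3 did not stand apart. At 8 h the Scd1 arrays of 10.31, 10.42, 10.40 and 10.52 in control and 9.95, 9.79, 9.82 and 9.91 after MMS did not overlap (difference -0.55, adjusted p = 4.85e-11). Scd2, the related desaturase, was 12.01, 12.002, 12.04 and 12.13 in control and 10.99, 10.92, 11.001 and 11.07 in treated cells at 8 h. It was 2.07-fold lower (log2 -1.05, SE 0.06, adjusted p = 1.1e-14), while its probe set with the largest variance stood at -0.30 (adjusted p = 0.30). At 24 h Scd2 read 12.63, 12.55, 12.62 and 12.45 in control and 11.70, 11.66, 11.89 and 11.83 in treated cells, lower by 0.79. The desaturases Fads1 and Fads2, which act on polyunsaturated fatty acids, were lower by 0.48 and 0.58 at 8 h and by 0.84 and 0.51 at 24 h. The Fads1 call at 8 h was lost with the mean of its probe sets (-0.20, adjusted p = 0.088).

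The genes of fatty acid activation and lipid assembly did not move as a group. Acsl3, an acyl-CoA synthetase, was lower by 0.41 at 8 h and 0.44 at 24 h. The Acsl3 call at 8 h was lost with the mean of its probe sets (-0.15, adjusted p = 0.082) and with Welch's adjusted test (adjusted p = 0.097). Acsl4, which activates arachidonic acid, stood at 8.94, 9.0, 9.18 and 9.10 in control and at 8.16, 8.56, 8.14 and 8.19 in treated cells at 8 h. All treated arrays were lower, by 0.79 (SE 0.10, adjusted p = 5.2e-08), and at 24 h the difference was -0.01 (adjusted p = 0.96). A second Acsl4 probe set read -0.85 at 8 h and the one with the largest variance 0.06 (adjusted p = 0.60), so the 8 h call rested on the probe set. At 24 h the Acsl4 probe set with the largest variance was higher by 0.265 (adjusted p = 0.0188 in limma), so this time depended on the probe set too. Lpin1, which makes diacylglycerol and also acts as a coactivator in the nucleus, was higher at 3 times. At 8 h it stood at 6.84, 6.82, 6.87 and 6.99 in control and 7.41, 7.53, 7.38 and 7.37 in treated cells, higher by 0.54 (adjusted p = 3.8e-05). At 24 h the values were 7.62, 7.76, 7.59 and 7.56 against 9.26, 8.88, 8.82 and 8.94. All treated arrays were more than a log2 unit above the control arrays, and the difference was 1.34 (SE 0.10, adjusted p = 3.2e-12). At 72 h Lpin1 read 8.79, 8.31, 8.56 and 8.45 in control and 9.63, 9.38 and 9.08 in treated cells, higher by 0.84 (adjusted p = 7.7e-07).

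At 1 h hardly any member differed past the threshold. Insig1 was the 1 gene called among 20 cholesterol genes, and no fatty acid gene was called in limma or in Welch's adjusted test (1 was higher at an unadjusted p under 0.05). Over all genes tested 0.361% were higher and 0.0283% lower. Differences of all 32 members lay between -0.08 and 0.34. Srebf2 and Stard4 stood at 0.21 and 0.26 with all treated arrays above the control arrays, and neither passed the test (adjusted p = 0.52 and 0.77). The call of Insig1 was lost without any 1 of the control 1 h replicates or without MMS 1 h replicate 1 or 2, at differences of 0.27 to 0.34, and also with Welch's adjusted test (adjusted p = 0.42).

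At 72 h the medians were -0.02 in the cholesterol genes and 0.05 in the fatty acid genes. In the cholesterol pathway 3 genes were higher (Msmo1, Nsdhl and Hsd17b7) and 3 lower (Mvd, Cyp51 and Srebf2), and in the fatty acid pathway 3 were higher (Fads2, Acsl4 and Lpin1) and 1 lower (Fads1). In all genes tested 10.1% were higher and 10.4% lower. Msmo1 stood at 11.11, 10.95, 10.92 and 10.97 in control and at 11.41, 11.48 and 11.49 in treated cells, so that a gene 2.09-fold lower at 24 h was now higher by 0.47 (SE 0.10, adjusted p = 0.0010). The Msmo1 probe set with the largest variance stood at 0.21 (adjusted p = 0.44). Fads1 was lower by 0.41 (adjusted p = 0.00021), and Fads2 was 8.45, 8.83, 8.88 and 8.79 in control and 9.0, 9.07 and 9.10 in treated cells (0.32, adjusted p = 0.013). The calls of Msmo1, Srebf2, Fads1 and Lpin1 held without each array in turn. That of Mvd (-0.28) was lost without any 1 of the 4 control arrays or without MMS 72 h replicate 2 or 3 (-0.29 to -0.17). Nsdhl (0.18) lost its call without control 72 h replicate 2, 3 or 4 or MMS replicate 1 or 2 (0.14 to 0.18). Without MMS replicate 3 Cyp51 (-0.26), Fads2 (0.30) and Acsl4 (0.29) were not called. The same held for Cyp51 without MMS replicate 1 (-0.27), for Acsl4 without MMS replicate 2 (0.34), for Hsd17b7 without MMS replicate 2 (0.22) and for Fads2 without control replicate 1 (0.22). With Welch's adjusted test Msmo1 alone was called at 72 h. With array weights 5 cholesterol genes were higher and 5 lower, and 5 and 4 fatty acid genes.

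Tested as a change of the MMS effect between times, the effects on 15 of 32 members moved down from 8 to 24 h and those on 29 moved up from 24 to 72 h. From 8 to 24 h the effect became more negative in 11 cholesterol and 4 fatty acid genes and less negative or more positive in 1 and 3, against 22.2% and 23.3% of all genes tested. Mvd, Fdps and Cyp51 changed by -1.21, -1.21 and -1.57, and the effects on Hmgcs1 (0.11), Msmo1 (0.11), Idi1 (-0.35) and Elovl6 (0.35) did not pass the test (adjusted p = 0.41, 0.56, 0.059 and 0.053). From 24 to 72 h the effect rose in 19 of 20 cholesterol genes and in 10 of 12 fatty acid genes and fell in Lpin1 (-0.50, adjusted p = 0.011). Of all genes tested, 12.4% changed upward and 16.5% downward. The rise was largest among the members in Idi1 (1.87, adjusted p = 1.4e-10), Fdps (1.57) and Msmo1 (1.54), and Ebp (-0.21, adjusted p = 0.15) and Srebf1 (-0.17, adjusted p = 0.47) did not pass. Both contrasts use the 24 h arrays, so they are not independent. The macrophage markers had means of 8.36 to 9.06 on the 8 h arrays and 4.52 to 5.57 on the 24 h arrays. A change of the MMS effect from 8 to 24 h therefore cannot be told apart from this difference between the cultures.

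In control cells the members also moved with time after the medium change. At 1 h 8 cholesterol genes and 1 fatty acid gene were higher than at 0 h and none was lower in limma (1 at an unadjusted p under 0.05), against 7.22% and 4.38% of all genes tested. Insig1, Acsl4 and Idi1 were higher by 0.55, 0.53 and 0.52. At 8 h 12 cholesterol and 7 fatty acid genes were lower and 3 and 3 higher, where 23.6% of all genes tested were lower and 35.8% higher. Sqle fell from 10.98, 11.06, 10.92 and 11.04 at 0 h to the values at 8 h given above, by 0.92 (adjusted p = 3.5e-11). At 1 h Sqle had read 11.13, 11.11, 11.14 and 11.21, so its low point was at 8 h. Elovl6 fell by 0.98 from 9.50, 9.54, 9.85 and 9.48 (adjusted p = 2.6e-09), and Tm7sf2 by 0.82 from 7.29, 7.32, 7.75 and 7.57 to 6.65, 6.61, 6.57 and 6.83 (adjusted p = 3.6e-06). Stard4 stood at 8.35, 8.44, 9.43 and 8.44 at 0 h, where replicate 3, with intestinal transcripts, stood far above the others. Its fall to 8 h was 0.81 on the log2 scale with all arrays and 0.55 without that array. Insig1 rose from 7.74, 7.80, 7.65 and 7.76 at 0 h by 1.32 (adjusted p = 2.0e-15) at 8 h. Acsl4 rose from 8.08, 8.24, 7.96 and 8.15 by 0.94, and Srebf1 from 8.81, 8.80, 8.62 and 8.72 to 9.36, 9.64, 9.43 and 9.55, by 0.76 (adjusted p = 2.8e-07). The macrophage markers were high on the same 8 h arrays, and the comparison with control cells at 8 h and that with MMS at 8 h share those arrays.

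At 24 h few members differed from 0 h in control cells by the test. There 3 members were higher (Hsd17b7 by 0.23, against -0.44 for its probe set with the largest variance, Scd2 by 0.20 and Acsl4 by 0.37) and none lower in limma (2 at an unadjusted p under 0.05), against 9.12% higher and 2.06% lower of all genes tested. At 72 h 10 cholesterol and 4 fatty acid genes were lower and 1 and 2 higher, with 16.3% of all genes tested lower and 21.8% higher. Lpin1 rose from 7.47, 7.48, 7.26 and 7.60 at 0 h by 1.08 in control cells (adjusted p = 9.1e-10). Lss fell from 9.10, 9.01, 8.86 and 9.18 at 0 h to 8.58, 8.46, 8.44 and 8.38 at 72 h, by 0.58 (adjusted p = 1.1e-06), while its probe set with the largest variance stood at 0.18. Msmo1 fell by 0.51 from 11.51, 11.42, 11.46 and 11.59 (adjusted p = 9.8e-05), and Stard4 by 0.51 to 8.25, 8.06, 8.14 and 8.17. The call of Stard4 was lost without control 0 h replicate 3 (-0.25, adjusted p = 0.056). Fads2 fell by 0.42 from 9.19, 9.16, 9.06 and 9.20, and Scd2 rose by 0.42 from 12.34, 12.47, 12.30 and 12.32 to 12.98, 12.70, 12.70 and 12.74 (adjusted p = 3.4e-06).

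Most members had more than 1 probe set on the array. The 32 members had 75 probe sets, 6 of them below the limit for expression, and 9 members had a single one. Adjusted p-values of single probe sets were taken over all probe sets tested. The other 37 tested probe sets of 22 genes had the sign of the chosen one in 34 cases at 24 h, 29 at 8 h, 31 at 72 h and 28 at 1 h. The 4 other probe sets of Hmgcs1 were lower by 1.10 to 1.55 at 8 h. Where the chosen probe set was itself called, a single other probe set was called in the opposite direction, that of Sc5d, a sterol desaturase. It was higher by 0.54 at 8 h (adjusted p = 0.00081), while the chosen probe set was lower by 0.50 and another by 0.48. Some probe sets were called where the chosen one was not and had the other sign. With the probe set of largest variance, limma called Acsl4 higher at 24 h (0.265, adjusted p = 0.0188). Fdft1 was called higher in the same way at 72 h (0.272, adjusted p = 0.00918). Hmgcs1, Fdft1 and Hsd17b7 were represented by probe sets marked as holding probes that may match other transcripts, and Mvd, Lss and Acsl3 by probe sets marked as shared by several transcripts. For Fdft1, which makes squalene, a unique probe set was lower by 0.46 at 8 h and 0.86 at 24 h.

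Other genes of the same pathways moved in both directions. Of 28 such genes listed, 24 were tested and Acat2, Nr1h2, Soat1 and Acsl1 had no probe set of that symbol alone. At 8 h 2 were higher and 9 lower, and at 24 h 10 were higher and 3 lower, with medians of -0.14 and 0.27. The shares over all genes tested were 28.7% for higher and 25.0% for lower at 8 h, against 25.0% and 19.4% at 24 h. Among the 4 genes of SREBP processing, the escort Scap was higher at 24 h by 0.89 (adjusted p = 2.55e-09), the proteases Mbtps1 and Mbtps2, which release the SREBPs, were lower by 0.30 and higher by 0.27, and Insig2 stood at 0.09 (adjusted p = 0.56). Abca1, which exports cholesterol and is a target of the LXR receptors, was 7.30, 7.23, 7.21 and 7.40 in control and 5.84, 5.92, 5.63 and 5.86 in treated cells at 8 h. All treated arrays were lower, by 1.47 (SE 0.19, adjusted p = 1.3e-07). At 24 h Abca1 read 7.12, 7.46, 7.13 and 7.02 in control and 9.03, 8.77, 8.95 and 8.97 in treated cells, higher by 1.75 (adjusted p = 8.2e-09). Its effect thus turned sign between 8 and 24 h (change 3.22, adjusted p = 6.1e-11). The related exporter Abcg1 stood at -0.86 at 8 h and 0.84 at 24 h, and Mylip, which marks lipoprotein receptors for degradation, at -0.43 and 0.49, each past the threshold. Macrophages are known to express these exporters. The macrophage markers had means of 8.93 to 9.06 in control and 8.36 to 8.61 in MMS-treated cells at 8 h. At 24 h these were 4.52 to 4.61 and 5.07 to 5.57. There Cd68, Cd14 and Csf1r were higher after MMS, while Lyz2, Adgre1, Tyrobp, Fcer1g, C1qa, C1qb and C1qc had lower means after MMS. Fcgr3 was about level, and Ctss had a higher mean after MMS with arrays that overlapped. The part of macrophage transcripts in the differences of the exporters and Mylip was not tested. Dgat2, an enzyme of triglyceride synthesis, was 6.61, 6.80, 6.65 and 6.85 in control and 7.98, 7.78, 8.00 and 8.15 in treated cells at 8 h, higher by 1.25 (SE 0.34, adjusted p = 0.0027). Its SE takes in the spread of all groups, and at 0 h control replicate 3, with intestinal transcripts, read 9.44 and the others 6.39 to 6.82. The SEs of Acsl5 and Dgat1 also take in that array, at 12.61 and 11.515. Their 8 h arrays did not overlap. Acsl5 read 9.79 to 9.98 in control and 9.17 to 9.44 after MMS, and Dgat1 7.80 to 7.89 and 7.56 to 7.75. Plin2, a coat protein of lipid droplets, was higher by 0.88 at 24 h and 0.69 at 72 h (adjusted p = 3.5e-16 and 3.4e-12). Scap, Mbtps1, Mbtps2, Insig2, Abcg1, Mylip, Acsl5, Dgat1 and Plin2 were named after their values were seen.

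**Figure D5:**
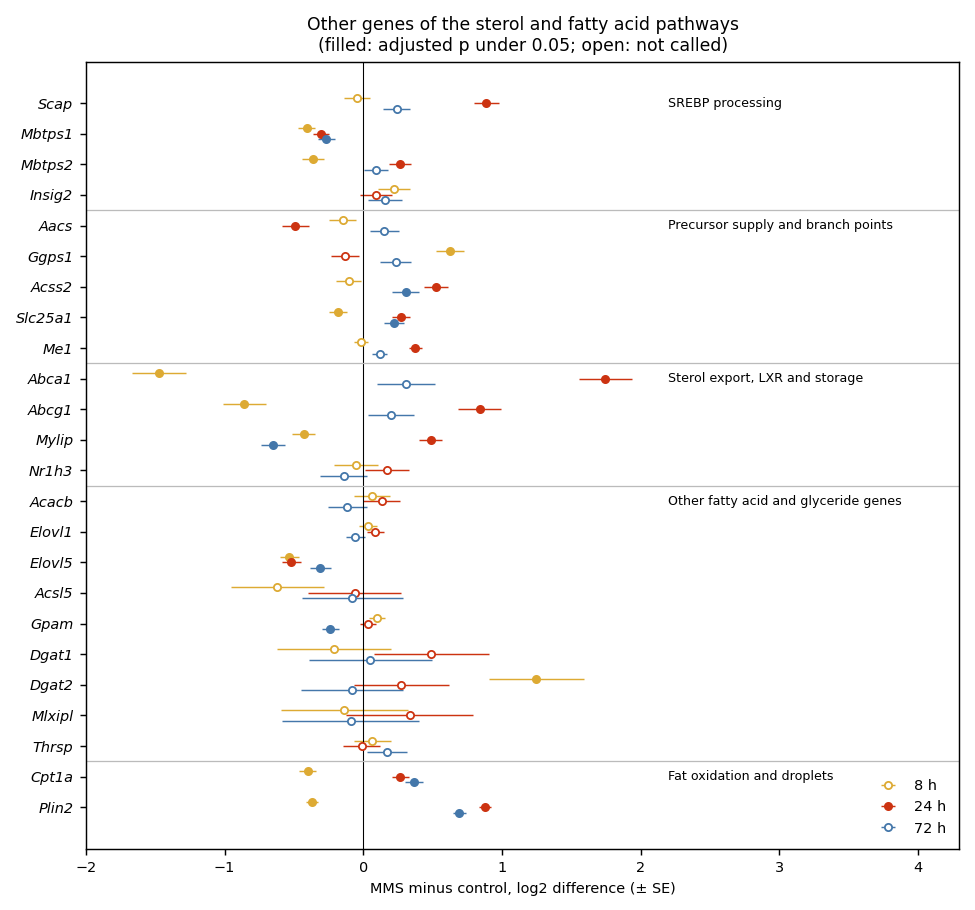
Log2 differences, MMS minus control (x axis, with SE bars), of 24 other genes of the pathways (rows, grouped by role) at 8, 24 and 72 h (yellow, red and blue), filled where the adjusted p was under 0.05. Abca1 lies at -1.47 at 8 h and 1.75 at 24 h, the widest swing of the genes shown.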

How the data were processed

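Total RNA of primary MEFs was hybridised to 35 Affymetrix mouse expression arrays with 45101 probe sets. The authors made the deposited log2 values by RMA, which subtracts background, quantile-normalizes the arrays and summarises the probes of a set, with its version not given in the sources used here. The values ran from 2.44 to 14.62 and the array medians from 4.98 to 5.09. Array signals have no read depth, so precision here rests on how many arrays a group had. Probe sets were named through the platform annotation, of which 34958 had 1 gene symbol, 932 several and 9211 none. Where a gene had several, the probe set of highest mean signal stood for it, giving 18194 genes. Of these, 14135 entered the test, having a mean in 1 group or more at or above log2 4.40, the 40th percentile of the table. One limma model (version 3.58.1, R 4.3.3) was fitted to all 9 groups with 26 residual degrees of freedom and an empirical Bayes variance, and p-values were adjusted by Benjamini-Hochberg over all genes tested. It replaced the permutation analysis of the array service. The fit was tested on simulated data.

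Members were described by value on every array where they changed at least 2-fold in an MMS comparison or were among the 3 of their pathway with the largest called change in control cells at 8 or 72 h, with Insig1, Srebf1 and Srebf2 always named. The members, marker lists and other gene lists were chosen with earlier results of these data known. The alternatives were a second quantile normalization, centring of the arrays, a filter at the 60th percentile or none, the mean of a gene's probe sets or the one with the largest variance, a model of the compared groups alone, array weights, Welch's test per gene, the replicate number as a block, each array left out, the 8 h arrays left out, and the 4 arrays with most intestinal transcripts left out, or 6 of them (the last added after seeing the data). Deviations of same-numbered arrays from their group means correlated between -0.32 and 0.87 (median 0.03, and 0.10 within a time). The median for differently numbered arrays was -0.002. Since not every same-numbered pair lay above 0.1, the numbers were not taken as pairs. This rule cannot show that the arrays were unpaired. No 2 arrays held the same values. The sample labels list no replicate 4 of MMS at 72 h. Promoters came from RefSeq (GRCm38.p6).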

Additional observations from a re-analysis of the deposited data

Results flagged for a closer look

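Among 256 groups of 4 arrays, 1 for each member and group, the array farthest out lay beyond Dixon's critical value for its gap in 18, or 7.03%, where chance gives about 1 in 20. Control 72 h replicate 1 was that array 5 times. It was the highest for Fdft1 (10.91), Hsd17b7 (10.16), Insig1 (7.78) and Scd2 (12.98) and the lowest for Ebp (8.67). Replicate 3 of MMS at 24 h, which held intestinal transcripts, was the highest for Cyp51 (9.10), Nsdhl (9.26) and Stard4 (8.32). Control 0 h replicate 3, the richest in these transcripts, was the highest for Stard4 (9.43) and Elovl6 (9.85) and the lowest for Acly (10.905). Control 8 h replicate 1 was the lowest for Pmvk (7.95) and Dhcr7 (7.05). The other flags were Lss in MMS 8 h replicate 1 (9.05), Acsl4 in MMS 8 h replicate 2 (8.56), Acly in MMS 1 h replicate 1 (11.24), Fasn in MMS 24 h replicate 4 (10.27) and, as the lowest, Fdft1 in control 24 h replicate 1 (10.56). Their causes were not tested.

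The MMS effect differed between 8 and 24 h, by limma's test of the change, in 19 members. It became more negative for Cyp51 (-1.57), Mvd (-1.21), Fdps (-1.21), Insig1 (-0.89), Fasn (-0.83), Sqle (-0.81), Pmvk (-0.79), Lss (-0.71), Scd1 (-0.67), Srebf2 (-0.64), Tm7sf2 (-0.61), Nsdhl (-0.60), Acaca (-0.47), Fads1 (-0.36) and Hsd17b7 (-0.26). It moved the other way for Lpin1 (0.80), Acsl4 (0.78), Ebp (0.35) and Scd2 (0.26). With the probe set of largest variance the changes of Hsd17b7 and Scd2 took the opposite sign. All 19 changes set the 8 h arrays, which were rich in macrophage transcripts, against the 24 h arrays, and the part of these transcripts was not tested.

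Between 24 and 72 h the effect differed in 30 members. Among the mevalonate steps it rose for Idi1 (1.87), Fdps (1.57), Hmgcs1 (1.07), Mvk (1.02), Mvd (0.86) and Pmvk (0.63). Among the sterol steps it rose for Msmo1 (1.54), Sqle (1.47), Cyp51 (1.33), Nsdhl (1.23), Lss (1.10), Sc5d (0.99), Tm7sf2 (0.84), Dhcr7 (0.69), Hsd17b7 (0.66) and Fdft1 (0.59). The regulators Srebf2 (0.88) and Insig1 (0.84) and the carrier Stard4 (0.65) rose as well. Of the fatty acid genes it rose for Scd1 (1.14), Acaca (1.01), Fasn (0.90), Elovl6 (0.87), Fads2 (0.83), Scd2 (0.74), Acly (0.67), Acsl3 (0.62), Fads1 (0.43) and Acsl4 (0.39), and it fell for Lpin1 (-0.50).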

How the results depend on the processing

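The counts of lower genes at 8 and 24 h kept within 1.5 times of the values reported under every alternative. Of 128 gene values in the MMS comparisons, the direction and the side of the threshold held in 126 with a second quantile normalization, 124 with centring, 127 with the stricter filter, 126 without a filter, 116 with mean probe sets, 117 with the probe set of largest variance, 123 with the compared groups alone, 116 with array weights and 116 with Welch's test. Without the 4 or 6 arrays with intestinal transcripts 125 and 124 held, and without the 8 h arrays 92 of 96. With each array left out 960 of 992 held, and none reversed. The replicate block changed no call in the MMS comparisons, and in control cells at 24 h 1 member was lower with it.

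The single cholesterol gene higher at 1 h became 0 under quantile normalization, centring, the compared groups alone, Welch's test and without the 8 h arrays, 2 with either probe set choice and 3 with array weights. The count of cholesterol genes higher at 24 h, 0 as reported, was 1 (Ebp) with the stricter filter, mean probe sets, array weights and without the 4 or 6 arrays. With mean probe sets the medians at 8 h were -0.199 for cholesterol and -0.231 for fatty acid genes, and that of fatty acid genes at 24 h -0.544. With the probe set of largest variance they were -0.458 and -0.382 at 8 h, and 0.129 for fatty acid genes at 72 h, with 2 fatty acid genes higher at 24 h. With centring the medians at 24 h were -1.09 and -0.705. At 72 h 1 cholesterol gene was lower with centring, 2 fatty acid genes were lower with either probe set choice, and 1 was higher with the compared groups alone or without the 6 arrays. Array weights gave 5 cholesterol genes higher and 5 lower at 72 h, and 5 and 4 fatty acid genes, and Welch's test gave 1 and 0, and 0 and 0.

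In control cells, 1 member was lower at 1 h with quantile normalization. At 24 h 1 was higher and 2 lower with it, 1 and 1 with centring or mean probe sets, 1 lower with the stricter filter, 0 higher with the compared groups alone, and 1 higher without the 6 arrays. At 72 h 9 were lower with the compared groups alone. Array weights gave 15 higher and 1 lower at 1 h, 6 and 4 at 24 h, and 25 lower at 72 h. The count whose effect fell from 24 to 72 h was 0 with centring, the largest variance, the compared groups alone or without the 6 arrays, and 3 with array weights, and 2 rose from 8 to 24 h with the largest variance. The cause of these shifts was not tested.

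Signs reversed with the probe sets alone. With their mean, Lss at 8 h stood at 0.0159, and in control cells Idi1 at 8 h at 0.311, Acaca at 8 h at -0.316, Hsd17b7 at 24 and 72 h at -0.027 and -0.263 and Sc5d at 72 h at 0.00401, with a change of Scd2 from 8 to 24 h of -0.112. With the largest variance, Lss (0.372) and Acsl4 (0.0625) at 8 h, Hsd17b7 (0.222) and Acsl4 (0.265) at 24 h and Fdft1 at 72 h (0.272) reversed. So did, in control cells, Hsd17b7 at 1, 24 and 72 h (-0.226, -0.442 and -0.789), Acly at 8 h (-1.10), and Lss (0.184) and Sc5d (0.559) at 72 h, and the changes of Hsd17b7 (0.342) and Scd2 (-0.716) from 8 to 24 h.

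With each array left out, 13 to 14 cholesterol genes were lower at 8 h, 19 lower and 0 to 1 higher at 24 h, 1 to 3 higher and 1 to 2 lower at 72 h, and 0 to 1 higher at 1 h. For fatty acid genes 1 to 3 were higher at 72 h. The cholesterol medians ranged from -0.412 to -0.374 at 8 h, -1.05 to -0.98 at 24 h and -0.0311 to 0.0358 at 72 h, and the fatty acid medians from -0.0345 to 0.107 at 72 h. In control cells 1 to 3 members were higher and 0 to 2 lower at 24 h, 2 to 3 higher and 11 to 16 lower at 72 h, and 0 to 2 effects fell from 24 to 72 h. The arrays are few and the limits of signal over background were not measured beyond the filter on low values.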
